A study of Homo sapiens with 12 samples.

Results

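TFRC, SLC11A2, FTH1, FTL, NCOA4, HMOX1, SLC40A1, ACO1 and IREB2 are 9 of the 58735 genes in the count table, and together they take up, store, release and sense iron. They were listed by name and were found through the identifiers that the deposited files pair with their symbols. The study looked for mRNAs whose translation depends on 4EBP1, the protein that holds back the cap-binding factor eIF4E. All libraries came from 293T4A cells, a human embryonic kidney line (293T) transduced with a lentiviral, doxycycline-inducible plasmid for 4EBP1-4A and sorted on GFP. In 4EBP1-4A the sites at which kinases switch the protein off are alanines, so that it keeps binding eIF4E. Control cells received DMSO, and treated cells received doxycycline at 2 mg/mL, for 12 h by the sample labels and 2 h by the series text, while the published results text names a longer time. Cycloheximide, which stalls ribosomes, was given to both groups before harvest, and the DMSO cells also carried the construct. Each group has 3 RNA-seq libraries, which count total RNA, and 3 Ribo-seq libraries, which count the fragments that ribosomes protect. No library of doxycycline-treated cells without the construct was analysed here, so the drug and 4EBP1-4A cannot be told apart.

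Iron enters most cells bound to transferrin through the transferrin receptor TFRC, leaves the endosome through SLC11A2 (DMT1), and is held in the cytosol in a shell of heavy (FTH1) and light (FTL) ferritin chains. NCOA4 carries ferritin to the lysosome for breakdown, HMOX1 frees iron from heme, and SLC40A1 (ferroportin) exports it. When iron is scarce, the iron regulatory proteins IRP1 (the ACO1 product) and IRP2 (the IREB2 product) bind a hairpin called the iron-responsive element (IRE). Bound in the 5′ UTR of an mRNA the proteins block its translation, and bound in the 3′ UTR of TFRC mRNA they protect it from decay.

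The hairpins below are what separates the 5′ from the 3′ class of these mRNAs, and are shown for that reason. They were read from GRCh38 and GENCODE release 44 transcripts on the mRNA strand alone. The pattern was a C, any 5 bases, the loop CAGUGN and 5 bases that pair with the first 5, G-U pairs allowed. Each is printed 5′ to 3′ in lower case, with the bulged C and the loop in capitals.
FTH1 5′ UTR: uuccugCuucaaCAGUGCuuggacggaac
FTL 5′ UTR: cucuugCuucaaCAGUGUuuggacggaac
SLC40A1 5′ UTR: caacuuCagcuaCAGUGUuagcuaaguuu
TFRC 3′ UTR, the first: aauuauCggaagCAGUGCcuuccauaauu
TFRC 3′ UTR, the second: cauuauCgggagCAGUGUcuuccauaaug
TFRC 3′ UTR, the third: cuguauCggagaCAGUGAucuccauaugu
TFRC 3′ UTR, the fourth: aauuauCgggaaCAGUGUuucccauaauu
SLC11A2 3′ UTR: agccauCagagcCAGUGUguuucuaugguu

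The FTH1 hairpin lies at chr11:61967574-61967602 on the minus strand, and starts at base 39 of a 5′ UTR of 209 bases. That of FTL, at chr19:48965335-48965363 on the plus strand, starts at base 33 of 199. That of SLC40A1, at chr2:189580661-189580689 on the minus strand, starts at base 104 of 326. The 4 TFRC hairpins that matched the pattern lie on the minus strand at chr3:196050979-196051007, chr3:196050575-196050603, chr3:196050510-196050538 and chr3:196050463-196050491. They start at bases 941, 1345, 1410 and 1457 of a 3′ UTR of 2658 bases, and 9 of 10 coding transcripts of TFRC hold them. The search misses hairpins that depart from the pattern, so these 4 may not be all that TFRC holds. The SLC11A2 hairpin, at chr12:50988268-50988297 on the minus strand, matched only with 1 unpaired base allowed in the stem, and only 4 of the 9 coding transcripts hold it. The counts are per gene, so SLC11A2 transcripts with and without the hairpin cannot be told apart.

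The pattern was found in 19 of 19168 canonical 5′ UTRs (0.0991%) and 121 of 19179 canonical 3′ UTRs (0.631%), or in 0.219% and 1.62% with the unpaired base allowed. No match was found in NCOA4, HMOX1 or ACO1. IREB2 had 1 match with an unpaired base in its 3′ UTR, in 1 of 2 coding transcripts, and is not listed here as an IRE mRNA. The classes compared below follow the mRNAs known for an IRE and not the search alone, with 3 mRNAs with a 5′ IRE (FTH1, FTL, SLC40A1), 2 with a 3′ IRE (TFRC, SLC11A2) and 4 others.

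**Figure D1:**
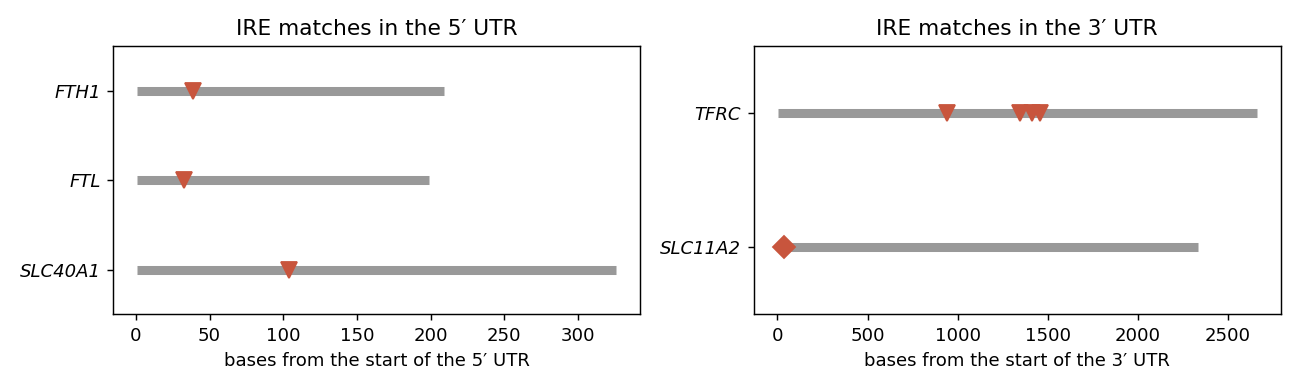
Position of each hairpin in the UTR, in bases from the UTR's start (grey bars: UTR length). Triangles mark a match with a fully paired stem and the diamond a match with 1 unpaired base. The 5′ matches start at base 39 or earlier in both ferritin mRNAs, and the last 3 TFRC matches sit within bases 1345 to 1457.

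The RNA-seq libraries hold 45887231 to 57824136 reads on genes, apart from doxycycline replicate 3, with 21687906. That library stood apart in other ways. Reads aligned to several places were 88.4% of its total, against 54.9% to 69.9% in the other 5 RNA-seq libraries. The mitochondrial genome gave 5.76% of its gene reads, against 11.8% to 15.8%. Its highest correlation with any other RNA-seq library was 0.985, where the lowest among the DMSO libraries was 0.998. Values of the 9 genes are therefore given with and without it. EIF4EBP1, the induced gene, had 158 ± 8.29 CPM (reads scaled to a common library size) in DMSO and 274 ± 14.3 in doxycycline (SD, n = 3 each), with no overlap. The 8 markers listed for 293T cells were all detected, with a summed 1243 to 1328 CPM in DMSO and 1323 to 1580 in doxycycline. None of 8 erythroid markers passed the filter on low counts, and 1 of 5 macrophage, 1 of 5 hepatocyte and 1 of 6 keratinocyte markers did.

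All 9 iron genes passed the filter of at least 10 reads in at least 3 RNA-seq libraries. Of 20552 genes tested with edgeR's quasi-likelihood test, 0 were lower and 0 higher at a Benjamini-Hochberg adjusted p under 0.05 (0% and 0%), so 0 of the 9 were called. At an unadjusted p under 0.05 the test gave 884 lower (4.30%) and 2189 higher (10.7%) genes, among them 2 of the 9 lower (TFRC and HMOX1) and 0 higher. DESeq2's Wald test called 2 genes lower and 1 higher, and edgeR's likelihood ratio test 8 and 4, none of them an iron gene. In 6 of the 9 all doxycycline libraries were below all DMSO libraries, and in 0 above, where 18.9% of all genes tested were lower and 19.7% higher by that rule. The median log2 fold change of the 9 was -0.31, and that of all genes 0.0029.

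Without doxycycline replicate 3, 673 of 20459 genes were called lower (3.29%) and 769 higher (3.76%). Of the iron genes, TFRC and HMOX1 fell and 0 rose, and the median of the 9 was -0.14. Spike-in totals were also used as library sizes in place of TMM, again without that library. With them 0 genes were called in either direction (41 lower and 154 higher at an unadjusted p under 0.05). Neither TFRC (-0.28) nor HMOX1 (-0.25) passed (adjusted p = 0.99999 each, edgeR's test). The median log2 fold change of all genes was then 0.10. Leaving out any of the other 5 libraries called 0 genes. The spread between libraries, as the biological coefficient of variation, was 0.164 with all 6 libraries and 0.0627 without doxycycline replicate 3. With spike-in totals and without that library it was 0.227.

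**Figure D2:**
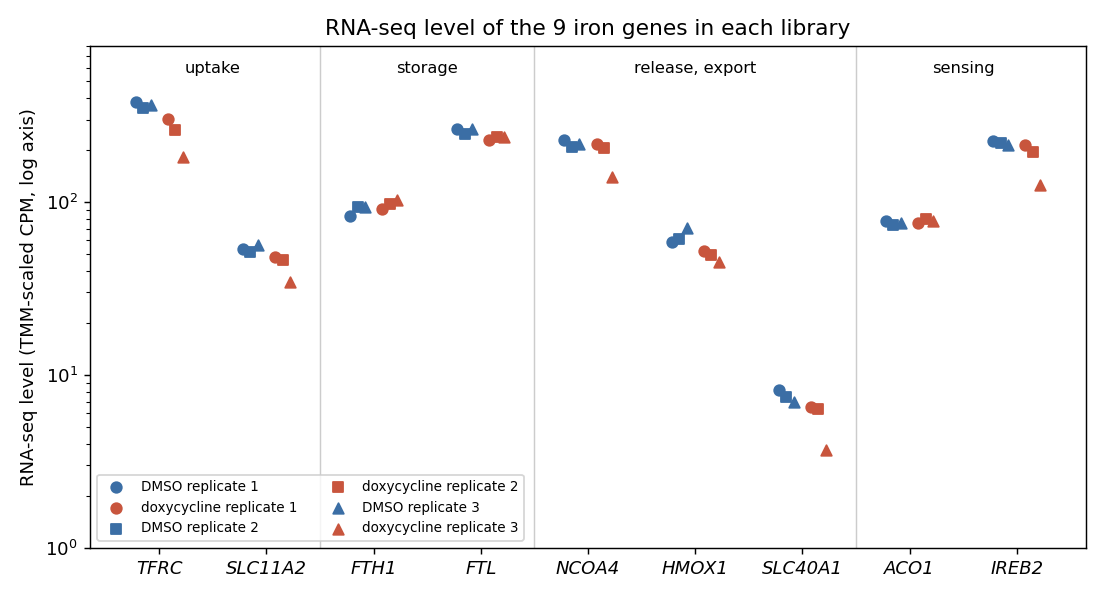
RNA-seq level of the 9 iron genes in each library, as CPM scaled with TMM factors, on a log axis. Blue points are DMSO and red points doxycycline, with 1 symbol for each replicate number. Doxycycline replicate 3 is the lowest point of TFRC, SLC11A2, NCOA4, HMOX1, SLC40A1 and IREB2, and the highest of FTH1.

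Per length, the genes covered a range from ferritin to ferroportin. In RPKM (CPM divided by the length of the canonical transcript in kilobases), the DMSO libraries gave 296 ± 9.75 for FTL (SD, n = 3, as in this whole paragraph), whose transcript has 871 bases. FTH1 had 74.7 ± 4.85 RPKM and TFRC 72.7 ± 3.03, and the ranges of this pair overlapped. The levels of FTH1 and FTL carry limits of the counting, which are given below. NCOA4 (62.9 ± 2.92 RPKM), HMOX1 (40.9 ± 3.97) and IREB2 (34.8 ± 0.796) followed. The lowest were SLC11A2 (13.0 ± 0.589 RPKM), ACO1 (10.1 ± 0.238) and SLC40A1 (2.26 ± 0.186). All other neighbours in this order had ranges that did not overlap. Of the 2 sensors, IREB2 thus lay above ACO1 in RPKM, and the importers above the exporter.

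With all 6 libraries, the 2 uptake genes had the lowest median log2 fold change of the 4 roles, -0.44, against -0.38 for release and export, -0.13 for sensing and -0.01 for storage. Without doxycycline replicate 3 these were -0.28, -0.23, -0.03 and -0.03. TFRC (ENSG00000072274; chromosome 3 of GRCh38, 196012511 to 196082153, minus strand) had 379, 349 and 366 CPM in the DMSO libraries and 301, 262 and 182 CPM in doxycycline replicates 1, 2 and 3. These are 17977 to 21041 reads in DMSO and 4327 to 14266 in doxycycline. Each doxycycline library was below each DMSO library, and replicate 3 was lowest. The log2 fold change was -0.55 ± 0.177 (SE; adjusted p = 0.303, edgeR's test). Without doxycycline replicate 3, TFRC fell by 22.8%, a log2 fold change of -0.37 ± 0.069 (adjusted p = 0.00895, edgeR's test).

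SLC11A2 (ENSG00000110911; chromosome 12, 50979401 to 51028566, minus strand) moves iron out of the endosome after the receptor has been taken in. Its levels were 53.2, 51.6 and 56.4 CPM in DMSO and 48.3, 46.0 and 34.6 CPM in doxycycline. The groups did not overlap, but doxycycline replicates 1 and 2 were close to the DMSO range. Its log2 fold change was -0.32 ± 0.143 (adjusted p = 0.303, edgeR's test), and -0.19 ± 0.071 without doxycycline replicate 3 (adjusted p = 0.103), so it was not called under either.

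The ferritin chains had fold changes of opposite sign, neither past the threshold. FTH1 (ENSG00000167996; chromosome 11, 61959718 to 61967634, minus strand), the chain with the ferroxidase site, had 83.1, 93.1 and 93.3 CPM in DMSO and 90.9, 98.0 and 103 CPM in doxycycline. The ranges overlapped, and the log2 fold change was 0.11 ± 0.102 (adjusted p = 0.477, edgeR's test). FTL (ENSG00000087086; chromosome 19, 48965309 to 48966879, plus strand), the chain that helps the iron core form, had 263, 248 and 263 CPM in DMSO and 230, 238 and 238 CPM in doxycycline. Here the groups did not overlap, although the gap was small, with a log2 fold change of -0.13 ± 0.084 (adjusted p = 0.339, edgeR's test; 0.22 with spike-in totals as library sizes, where the median of all genes was 0.34). Leaving out doxycycline replicate 3 gave 0.07 ± 0.069 for FTH1 (adjusted p = 0.552, edgeR) and -0.14 ± 0.062 for FTL (adjusted p = 0.156).

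The FTH1 level carries a limit of the counting. Exons of BEST1, a gene on the opposite strand, cover 1267 of the 2004 exonic bases of FTH1 (63.2%), and the sources used here do not say whether reads were counted by strand. BEST1 itself was listed at 5.997 CPM in DMSO and 4.53 in doxycycline. In RNA-seq, reads on the annotated pseudogenes were 1.80% to 2.70% of the FTH1 family's counted reads and 0.462% to 1.24% of the FTL family's. Only uniquely aligned reads were counted. Reads that aligned to both a ferritin gene and its pseudogenes are in neither count, and these shares do not measure them.

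The genes that free or export iron were HMOX1, NCOA4 and SLC40A1. HMOX1 (ENSG00000100292; chromosome 22, 35380361 to 35394214, plus strand), heme oxygenase 1, had 58.6, 61.5 and 70.5 CPM in DMSO and 52.1, 49.3 and 45.1 CPM in doxycycline. All doxycycline libraries were lower, and replicate 3 lay close to the other 2. The log2 fold change was -0.38 ± 0.115 (adjusted p = 0.303, edgeR's test). Without doxycycline replicate 3, HMOX1 fell with a log2 fold change of -0.33 ± 0.079 (adjusted p = 0.0246, edgeR's test).

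NCOA4 (ENSG00000266412; chromosome 10, 46005088 to 46030623, minus strand), the ferritin carrier, had 229, 209 and 215 CPM in DMSO and 217, 204 and 140 CPM in doxycycline. Doxycycline replicates 1 and 2 were within or next to the DMSO range, and replicate 3 alone was far below it. Accordingly its log2 fold change was -0.22 ± 0.165 with all libraries and -0.05 ± 0.064 without replicate 3 (adjusted p = 0.406 and 0.671, edgeR's test). SLC40A1 (ENSG00000138449; chromosome 2, 189560590 to 189583758, minus strand), the exporter, was the least abundant, with 8.17, 7.44 and 6.94 CPM in DMSO and 6.49, 6.36 and 3.70 CPM in doxycycline. Its groups did not overlap. The log2 fold change of SLC40A1 was -0.43 ± 0.214, or -0.23 ± 0.105 without doxycycline replicate 3 (adjusted p = 0.303 and 0.177, edgeR's test).

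Of the 9 genes, ACO1 had the fold change nearest to 0. It (ENSG00000122729; chromosome 9, 32384603 to 32454769, plus strand) encodes IRP1, which is an aconitase when it holds an iron-sulfur cluster, and had 77.2, 73.7 and 75.4 CPM in DMSO and 75.2, 80.1 and 77.9 CPM in doxycycline. The ranges overlapped, with a log2 fold change of 0.04 ± 0.090 (adjusted p = 0.771, edgeR's test) that was the same to 2 decimals without doxycycline replicate 3. IREB2 (ENSG00000136381; chromosome 15, 78437431 to 78501453, plus strand), whose protein is degraded when iron is plentiful, had 225, 220 and 215 CPM in DMSO and 213, 195 and 125 CPM in doxycycline. All doxycycline libraries were below DMSO, replicate 1 by little and replicate 3 by most. The log2 fold change of IREB2 was -0.31 ± 0.189, and -0.11 ± 0.063 without doxycycline replicate 3 (adjusted p = 0.338 and 0.308, edgeR's test).

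The classes by IRE differed in their medians, as a description of few genes. The 2 mRNAs with a 3′ IRE had a median log2 fold change of -0.44 (with IREB2 counted among them, the SLC11A2 value of -0.32), and the 3 with a 5′ IRE -0.13, while the 4 others had -0.26. Without doxycycline replicate 3 these medians were -0.28, -0.14 and -0.08. With a trend on GC content, described below, the 3′ and 5′ medians over all 6 libraries were close, -0.20 and -0.19. With that trend and without doxycycline replicate 3 they were -0.18 and -0.12. With spike-in totals as library sizes, which were added after seeing the data, the 3′ median was -0.14 and the 5′ median 0.22, both below the median of all genes, 0.34. Within the 5′ class, FTH1 lay above 0 and SLC40A1 nearly as low as TFRC, so that the range of the 5′ class covered the SLC11A2 value of the 3′ class. Other mRNAs are also known for an IRE. With a 5′ IRE, EPAS1 (HIF-2α) had a log2 fold change of 0.06 (-0.0042 without doxycycline replicate 3), and ALAS2, the erythroid heme enzyme, had 0 reads in all 6 libraries. With a 3′ IRE, CDC14A had -0.39 and CDC42BPA, in which no hairpin was found here, -0.18, or -0.16 and -0.10 without that library (adjusted p from 0.325 to 0.761 for these 3 with all libraries, edgeR's test).

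Ratios of 2 iron genes within a library do not depend on how the library was scaled. The log2 ratio of TFRC to FTH1 reads was 2.19, 1.90 and 1.97 in DMSO and 1.73, 1.42 and 0.82 in doxycycline. In the geometric mean these are 4.06 TFRC reads per FTH1 read in DMSO and 2.501 in doxycycline. The limits on the counting of FTH1 apply to the size of these ratios too. All doxycycline ratios were lower, with a difference of -0.70 on the log2 scale, or -0.45 without replicate 3 (exact permutation test, two-sided, p = 0.1 in both, the smallest that 3 against 3 or 3 against 2 libraries can give). The difference was -0.45 for TFRC to FTL, -0.45 for SLC11A2 to FTH1, -0.39 for IREB2 to ACO1 and 0.25 for FTH1 to FTL. In all 5 pairs compared the groups did not overlap (exact permutation test, p = 0.1 each, which cannot pass 0.05). Of all single genes tested, 18.9% were lower and 19.7% higher without overlap. The share among other pairs of genes was not computed, so the count is not a result about iron genes. Values of these pairs with a trend on GC content are given below. Without doxycycline replicate 3 the 4 pairs after TFRC to FTH1 gave -0.23, -0.26, -0.15 and 0.21 (exact permutation test, p = 0.1, 0.2, 0.1 and 0.2). The groups still did not overlap.

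GC content moved with the fold changes across all genes. Across 20305 genes, Spearman's rho between the GC content of the canonical transcript and the log2 fold change was 0.68, and 0.54 without doxycycline replicate 3, while for transcript length it was -0.06 (a description across genes, which share libraries). From the lowest to the highest decile of genes by GC content, the median log2 fold change went from -0.40 to 0.47. TFRC, at 40.9% GC, lay in a decile with a median of -0.29. IREB2 (38.2% GC), NCOA4 (42.7%), SLC40A1 (41.4%) and SLC11A2 (43.1%) lay in deciles with medians from -0.40 to -0.21. FTL (56.0% GC) and HMOX1 (57.7%) lay in one with a median of 0.21, so both lay below the median of genes of like GC content.

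**Figure D3:**
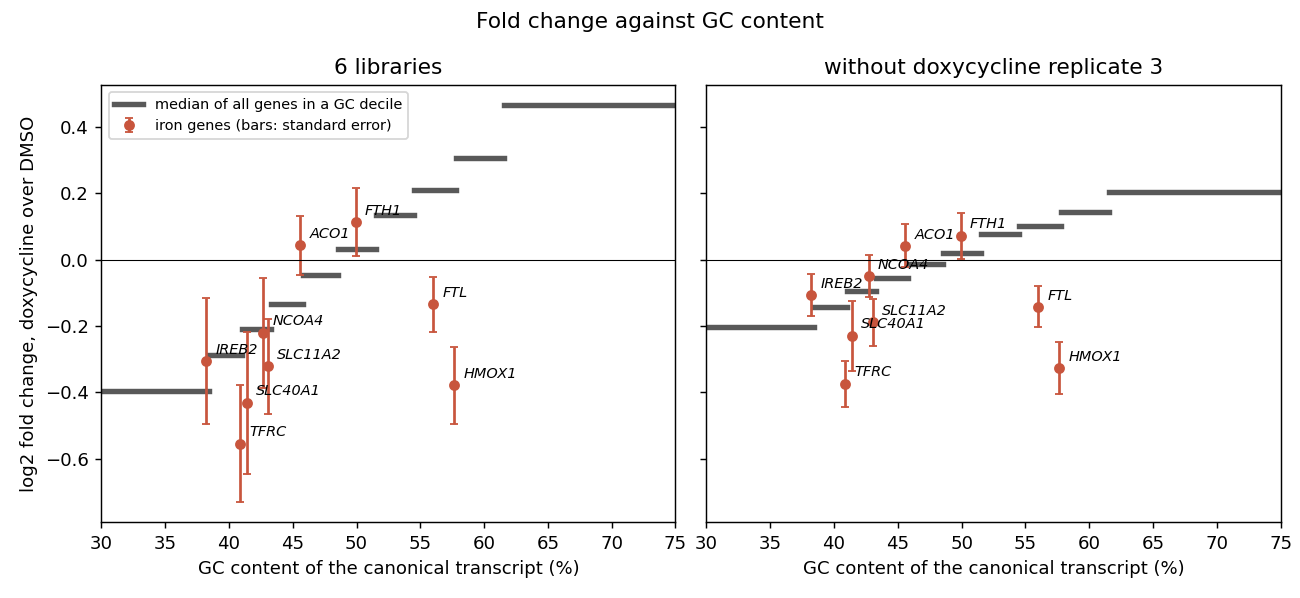
Log2 fold change (doxycycline over DMSO) against GC content of the canonical transcript in percent, with all 6 libraries (left) and without doxycycline replicate 3 (right). Grey bars are the median of all genes in each decile by GC content and red points the iron genes with their SE. HMOX1 and FTL sit below the grey bars at 54.5% to 57.8% GC (medians 0.21 and 0.10), TFRC sits below those at its own GC content (-0.29 and -0.14), and IREB2 and NCOA4 lie near them.

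A trend of each library on GC content was then added to the same edgeR test, a setting chosen after seeing the data. With it 0 of 20396 genes were called in either direction (0% and 0%), with 1486 lower and 1855 higher at an unadjusted p under 0.05. The log2 fold changes of TFRC (-0.29 ± 0.055), HMOX1 (-0.60 ± 0.147) and FTL (-0.34 ± 0.086) stayed below 0 (adjusted p = 0.297 each, edgeR's test). Those of NCOA4 (-0.01 ± 0.062) and IREB2 (0.06 ± 0.049) were near 0, that of SLC11A2 was -0.12 ± 0.056 and that of SLC40A1 -0.19 ± 0.111. ACO1, with all doxycycline libraries now above DMSO, came to 0.16 ± 0.076, and FTH1 to 0.08 ± 0.065. EIF4EBP1, the induced gene, went from 0.79 to 0.41 with the trend over all 6 libraries, and its groups then overlapped. This edgeR test called EIF4EBP1 higher without doxycycline replicate 3, with and without the trend, but not with all 6 libraries.

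With the GC trend and without doxycycline replicate 3, 394 of 20305 genes were called lower (1.94%) and 423 higher (2.08%). TFRC (-0.25 ± 0.043, adjusted p = 0.0112, edgeR's test), FTL (-0.25 ± 0.049, adjusted p = 0.0171) and HMOX1 (-0.45 ± 0.068, adjusted p = 0.00703) fell, and 0 of the 9 rose. TFRC and HMOX1 were thus called without that library under both settings, and FTL only with the GC trend. After the trend was taken off, TFRC had 330, 325 and 332 CPM in DMSO and 286, 268 and 256 in doxycycline, with doxycycline replicate 3 close to the other 2. HMOX1 had 66.3, 65.0 and 76.2 CPM in DMSO and 53.8, 47.5 and 34.9 in doxycycline, and IREB2 187, 200 and 188 against 199, 202 and 197. The 3′ and 5′ IRE medians with the trend were -0.20 and -0.19 over all 6 libraries, and -0.18 and -0.12 without doxycycline replicate 3. With the trend taken off over all 6 libraries, the difference in the log2 ratio of TFRC to FTL changed sign to 0.05, and that of IREB2 to ACO1 went to -0.10 (exact permutation test, p = 0.6 and 0.4). Those of TFRC to FTH1, SLC11A2 to FTH1 and FTH1 to FTL were -0.37, -0.20 and 0.42 (exact permutation test, p = 0.1 each).

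**Figure D4:**
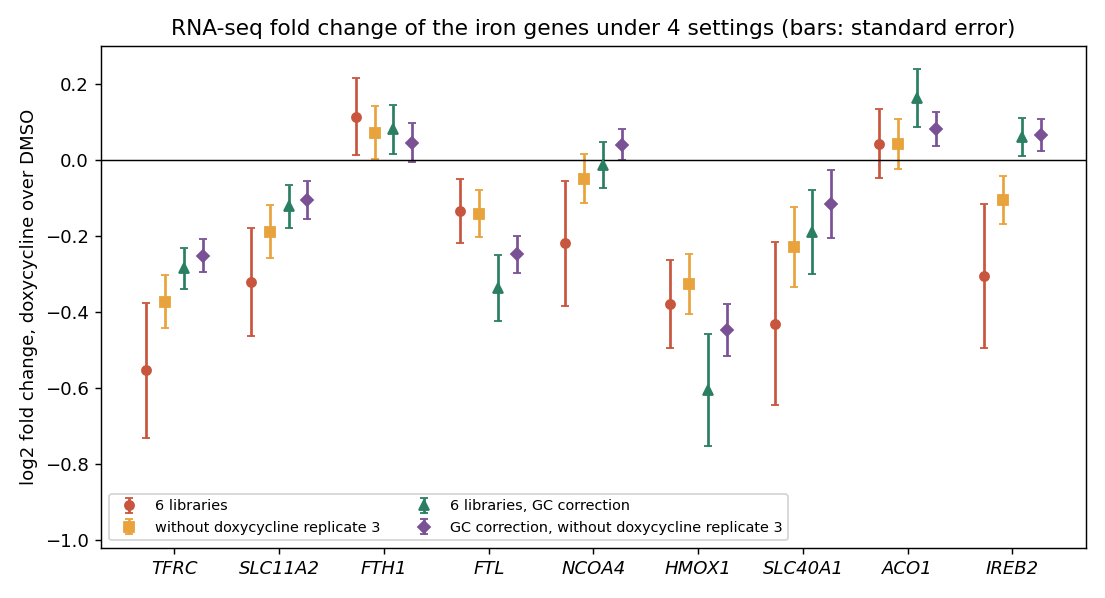
Log2 fold change of each iron gene (doxycycline over DMSO; bars: SE) under 4 settings, with all 6 libraries or without doxycycline replicate 3, each with and without the GC trend. TFRC and HMOX1 stay below 0 under all 4 (-0.25 to -0.55 and -0.33 to -0.60), whereas IREB2 lies below 0 without the trend (-0.31 and -0.11) and above it with the trend (0.06 and 0.07).

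The rest of the iron network was read from lists of 5 kinds. In none of them was a gene called with all 6 libraries (0 of 11, 5, 22, 15 and 13 tested), as in the whole table. Among 11 tested genes of uptake, reduction and cytosolic delivery, the median log2 fold change was -0.18, or -0.13 without doxycycline replicate 3. Without doxycycline replicate 3, STEAP1 and STEAP2, of the family that reduces ferric iron at membranes, fell (-0.41, adjusted p = 0.0442, and -0.31, adjusted p = 0.0378, edgeR's test), and 0 rose. STEAP1 had 6.14 ± 0.374 CPM in DMSO and 3.80 ± 1.49 in doxycycline, and STEAP2 24.6 ± 1.78 and 17.0 ± 4.93 (SD, n = 3 each). The largest positive values with separate groups were those of PCBP3 (0.47) and PCBP1 (0.23), the latter an iron chaperone that loads ferritin. PCBP3 was low, with a mean of 2.75 CPM in DMSO and 3.08, 3.27 and 5.25 CPM in doxycycline replicates 1, 2 and 3. With the GC trend over all 6 libraries PCBP3 and PCBP1 came to 0.18 and 0.06, and the groups of both overlapped. Without the trend and without doxycycline replicate 3 they were 0.20 and 0.22. With the GC trend and without that library, 0 genes of this list were called.

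Only 5 of the 10 genes of iron export and iron balance passed the filter on low counts. Their median was 0.0027, or 0.04 without doxycycline replicate 3, and 0 were called under any of the 4 settings. HIF1A, the hypoxia factor, had a log2 fold change of -0.44, and FBXL5, the ligase subunit that marks IRP2 for breakdown when iron is present, -0.39. HERC2, a ligase that acts on FBXL5, had 0.28 (adjusted p = 0.303 for HIF1A and HERC2 and 0.325 for FBXL5, edgeR's test). Leaving out doxycycline replicate 3 brought these to -0.21, -0.15 and 0.19. With the GC trend FBXL5 came to -0.08, beside 0.06 for its target IREB2.

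Mitochondrial iron and iron-sulfur assembly (22 genes tested) had a median of -0.04 with and without doxycycline replicate 3. IBA57, a late assembly factor, had 66.0 ± 3.27 CPM in DMSO and 116 ± 46.8 in doxycycline (SD, n = 3 each), and rose without doxycycline replicate 3 (0.43, adjusted p = 0.00581, edgeR's test). FDXR, which passes electrons to ferredoxin, also rose there (0.29, adjusted p = 0.0355, edgeR's test), but not with the GC trend (0.10, adjusted p = 0.412). IBA57 rose under that setting too (0.35, adjusted p = 0.00575, edgeR's test). BOLA3 and ISCA1, assembly factors of the same route, had -0.45 and -0.44 with all libraries (adjusted p = 0.303 each, edgeR's test) and -0.27 and -0.29 without doxycycline replicate 3, and were not called. GLRX5, which hands on new clusters and is named here after its value was seen, fell only with the GC trend and without replicate 3 (-0.28, adjusted p = 0.0223, edgeR's test).

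The 15 heme genes tested had a median of 0.12, or 0.06 without doxycycline replicate 3 and -0.07 with the GC trend, with 5 below 0 and 10 above it without the trend. FLVCR1, known as a heme exporter, had 71.6 ± 3.25 CPM in DMSO and 58.3 ± 4.11 in doxycycline (SD, n = 3 each). It fell without doxycycline replicate 3 (-0.24, adjusted p = 0.0396, edgeR's test) and was not called with the trend (adjusted p = 0.0988). Without that library 1 of the 15 heme genes was called lower and 1 higher, beside 3.29% and 3.76% of all genes. With the trend as well these were 0 and 1, beside 1.94% and 2.08%. PGRMC1, a heme-binding membrane protein, had -0.37 and BLVRA, the reductase of biliverdin downstream of HMOX1, 0.27 (adjusted p = 0.303 each, edgeR's test), against -0.21 and 0.17 without doxycycline replicate 3.

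NRF2, BACH1 and their other target genes, the set to which HMOX1 belongs, had the lowest median of these 5 lists with all 6 libraries, -0.34 over 13 tested. It was -0.20 without doxycycline replicate 3 and -0.16 with the GC trend. In 7 of the 13 the doxycycline libraries were all below DMSO and in 3 all above, beside 18.9% and 19.7% of all genes. SLC7A11, the cystine importer, had 195 ± 28.7 CPM in DMSO and 92.0 ± 37.1 in doxycycline (SD, n = 3 each), a log2 fold change of -1.08 (adjusted p = 0.303, edgeR's test). It fell without doxycycline replicate 3 (-0.80, adjusted p = 0.00088, edgeR's test), and with the trend too (-0.57, adjusted p = 0.00703). GCLM, the modifier subunit of the enzyme that starts glutathione synthesis, fell in both (-0.39, adjusted p = 0.0149, and -0.20, adjusted p = 0.0354, edgeR's test). SRXN1, which repairs peroxiredoxins, had 0.95 at under 1 CPM, and MAFG, a DNA-binding partner of NRF2 and BACH1, 0.32 (adjusted p = 0.303 each, edgeR's test), or 0.33 and 0.18 without doxycycline replicate 3.

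**Figure D5:**
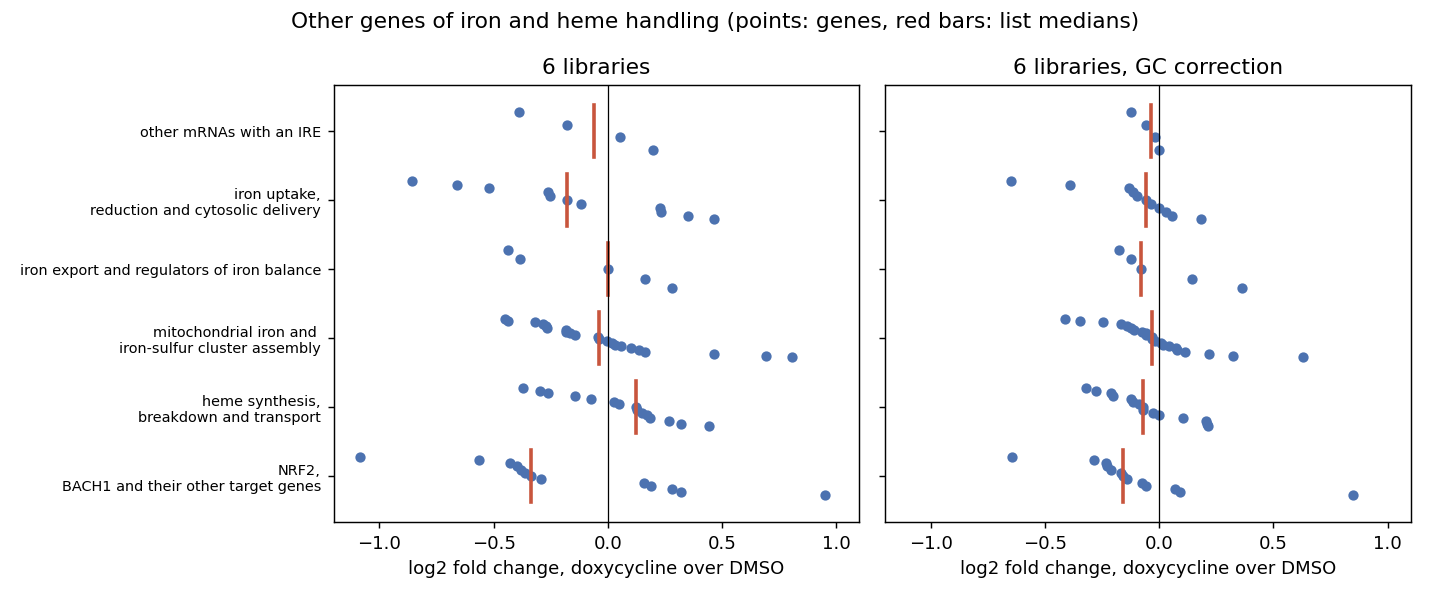
Log2 fold change (doxycycline over DMSO, 6 libraries) of each tested gene in the lists beside the 9, without (left) and with (right) the GC trend. Points are genes and red bars list medians, with the IRE mRNAs outside the 9 drawn as 1 list. The bar of NRF2, BACH1 and their targets moves from -0.34 to -0.16, and that of the heme genes from 0.12 to -0.07.

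Almost no Ribo-seq reads were counted on the 9. In the 6 Ribo-seq libraries, which hold 210186 to 1002424 reads on genes, the 9 genes had 9 reads in all. ACO1 had the most, 3, and FTL, NCOA4, HMOX1 and IREB2 had 0, although FTL had 68526 and NCOA4 57608 RNA-seq reads. A gene with 0 reads could still have up to 3 reads per library, which is 2.99 to 14.3 CPM, and this limit covers counting error only. The RNA-seq level of FTL, 230 to 263 CPM, is a share of another pool of reads and cannot be set against that limit. Its annotated pseudogenes had 35 Ribo-seq reads, and those of FTH1 38, beside 1 on FTH1 itself. In RNA-seq, by contrast, the parent genes held nearly all of each family's counted reads. The cause was not tested. None of the 9 reached the 10 Ribo-seq reads needed to enter the test of translation efficiency. Few genes of the whole table did, 1334 against the 20552 tested in RNA-seq. A Ribo-seq library had 233 to 497 genes with at least 10 reads, and an RNA-seq library 18258 to 20881. Whether the 5′ IRE mRNAs were translated more or less in doxycycline could not be read from these counts.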

How the data were processed

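To make the deposited counts, the authors aligned reads with STAR and counted the unique ones on exons. The methods name GRCh38 for the alignment and GRCh37 for annotation, the labels name Ensembl 75, and whether strand was used is not given in the sources used here. The counts are raw. The authors' table of translation efficiency holds their own dispersions, p-values, ratios and log2 fold changes; only its pairs of gene identifier and symbol were used.

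All 12 libraries were grouped by their labels. The paper calls the replicates biological but does not describe how they were grown, so p-values measure the spread between these libraries. Of 58735 deposited identifiers, 58207 (99.1%) were found in GENCODE release 44 on GRCh38, as were all 122 symbols of the gene lists. Spike-ins and reads without a gene were left out of library sizes. RNA-seq counts were scaled with TMM and tested with edgeR 4.0.16 (quasi-likelihood test, Benjamini-Hochberg adjustment over all genes, called at 0.05; limma 3.58.1, R 4.3.3), after a filter of 10 reads in 3 libraries. Translation efficiency was tested as the interaction of assay and treatment. Ratios within a library were compared with the exact permutation test. The GC trend was a lowess of each library on GC content, added to the offsets of 20396 genes with a value (99.2%). The tests were also run on simulated counts with the same dispersion for all genes and libraries, which does not show their power in these data. DESeq2 1.42.0 gave alternatives. Python 3.11.15, numpy 2.4.6, pandas 2.3.3 and matplotlib 3.10.9 were used.

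The 9 genes and the lists were chosen with earlier results of these data known. Named beside the 9 are EIF4EBP1, the listed IRE mRNAs and, from each other list, the 2 highest and the 2 lowest log2 fold changes above and below 0 among tested genes whose groups did not overlap, or fewer where fewer qualified; some genes that this rule names are not reported here. The alternatives were other scalings, filters and tests, a replicate block, pseudogene reads, a pseudocount of 1 and each replicate left out. Spike-in totals, the GC trend and settings combined with leaving out doxycycline replicate 3 were chosen after seeing the data.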

Additional observations from a re-analysis of the deposited data

How the results depend on the processing

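Of the values recomputed under an alternative, 311 were rated the same, while 37 moved, 9 reversed and 11 passed the threshold only under the alternative. For the fold changes of the 9 genes, the same means an unchanged direction and side of the threshold. Ratios, class medians and counts were rated by how far they moved, so a value that moved can keep its direction. With spike-in totals as library sizes, which put the median of all genes at 0.34, FTL and the 5′ IRE median came to 0.22, NCOA4 to 0.078 and the 3′ IRE median to -0.14, with 196 genes called higher; without doxycycline replicate 3 NCOA4 was 0.051 and the 3′ median -0.19 (all genes 0.10). With library totals the 5′ median was -0.033, and without doxycycline replicate 3 NCOA4 was 0.0066, with 339 genes called lower and 1442 higher, against 673 and 769 with TMM. With the GC trend the 3′ IRE median was -0.20 (-0.18 without doxycycline replicate 3), IREB2 0.060 (0.066), NCOA4 0.040 without that library, the ratio of TFRC to FTL 0.054 and that of FTH1 to FTL 0.42. The cause was not tested. Genes called lower and higher were 2 and 1 with DESeq2's Wald test, 8 and 4 with the likelihood ratio test, and, without doxycycline replicate 3, 1054 and 996, 909 and 1004, and 394 and 423 with the GC trend. Leaving out each replicate gave 0 to 673 genes lower, 0 to 769 higher and 0 to 2 iron genes lower, the upper end always without doxycycline replicate 3. Without it, 2 iron genes were called lower with DESeq2, the likelihood ratio test and library totals, 3 with the GC trend and 0 with spike-in totals, which called 0 genes in either direction. For translation efficiency 2 genes were called lower and 0 higher (191 and 97 at an unadjusted p under 0.05), none an iron gene. DESeq2 gave 31 and 27, library totals 1 lower, and leaving out each replicate 0 to 1 lower and 0 to 1 higher. Same-numbered libraries did not deviate together (r = 0.46, -0.45 and 0.02), so replicate numbers were not taken as pairs; with a replicate block TFRC was -0.58, 0 genes were called in RNA-seq, and 0 in translation efficiency. Ribo-seq reads were too few to test any of the 9 genes, and depth limits the RNA-seq value of SLC40A1 (88 to 454 reads).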

Other observations

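Spike-in RNAs (ERCC) were 0.0776% to 0.128% as many as the gene reads in the DMSO RNA-seq libraries and 0.0637% to 0.0979% in doxycycline, lowest in doxycycline replicate 3. How they were added is not given in the sources used here.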
